A study of Arabidopsis thaliana with 128 samples.

Results

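The decline of mRNAs after a block of transcription was compared between Arabidopsis thaliana seedlings mutant in VARICOSE (VCS) with and without a transgene of SUPPRESSOR OF VARICOSE (SOV), labelled vcs and vcs sov. The data were the 48 libraries of the genotypes vcs and vcs sov taken at 0, 7.5, 15, 30, 60 and 120 min, out of 128 libraries of 4 genotypes and 8 times in the series. Each genotype had 4 numbered biological replicates, so that the 48 libraries formed 8 courses of 6 libraries each. Per the labels, vcs is the vcs-7 mutant carrying a SOV transgene from Landsberg erecta, and vcs sov is the vcs-7 mutant without that transgene. The 48 libraries of the same times from WT (Col-0 with the transgene) and sov (Col-0 without it) served for comparison. The presence of the transgene is therefore the contrast, and both main genotypes share the vcs-7 mutation.

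All samples were whole 5-d-old seedlings grown at 22 °C in constant light, with 50 to 60 seedlings of a genotype in each replicate. Seedlings were vacuum infiltrated with 1 mM cordycepin, an adenosine analogue that stops transcript elongation and with it the supply of new mRNA. Whole seedlings mix all cell types, so that a slope is an average over them. A smaller share of a cell type and less RNA per cell cannot be told apart in such samples.

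Cytoplasmic mRNAs are degraded after their poly(A) tail is shortened. In one route the cap is removed by a decapping complex, for which VCS (AT3G13300) is a scaffold, and the body is then degraded from the 5' end. In the other the body is degraded from the 3' end, either by the exosome or by SOV (AT1G77680), an exoribonuclease of the DIS3L2 type. The comparison asks which mRNAs decline at another rate without the SOV transgene when the decapping scaffold is already defective.

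For each gene and course, the slope of log2 level on time over 0 to 120 min was computed, in log2 units per h. Levels were RPM, which set a gene's reads against all reads counted in genes, after each library was scaled to 50 reference genes with nuclear identifiers. They were those of the highest mean slope before scaling (median 0.20 in vcs and 0.23 in vcs sov). Of these, 2 lie in the chromosome 2 region that carries a copy of mitochondrial DNA, and without them, an alternative chosen after seeing the data, 2124 genes were called higher and 169 lower in place of the counts given below. Half-lives are 60 min divided by the slope without its sign, and a higher slope means a slower decline. Slopes and half-lives are relative to the reference genes, whose own rise or decline in amount was not measured. Tests used limma on 4 slopes against 4, with Benjamini-Hochberg adjustment over the 16744 genes of at least 2 RPM at 0 min in both genotypes and a threshold of 0.05. The libraries held 11.5 to 32.8 M reads, and 3 reads corresponded to 0.0914 to 0.261 RPM. Nuclear genes took a median of 63.3% of reads in vcs and 73.2% in vcs sov before cordycepin (0 min), and 58.3% and 69.3% at 120 min.

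More mRNAs declined slowly in vcs sov than in vcs when set against the reference genes, while the shift of the median over all genes did not pass its test. The median slope over all genes tested was -0.35, -0.43, -0.45 and -0.46 in the 4 vcs courses. It was -0.31, -0.33, -0.34 and -0.37 in the 4 vcs sov courses. The 2 ranges overlapped through vcs replicate 1 (-0.35) and vcs sov replicate 4 (-0.37). The means were -0.42 ± 0.05 in vcs and -0.34 ± 0.02 in vcs sov (mean and SD, n = 4). The difference of 0.08 had p = 0.0571 in a two-sided exact permutation test, where the smallest p that 4 against 4 allow is 0.0286. Without vcs replicate 1 the difference was 0.11, with exact p = 0.0286. Without vcs sov replicate 4 it was 0.093, with exact p = 0.0571. Leaving out any other single course gave exact p of 0.0571 to 0.0857. In the backgrounds with intact VCS, the median slope went the other way, with -0.48 ± 0.03 in WT and -0.53 ± 0.03 in sov (SD, n = 4; exact permutation p = 0.0286, and 0.0571 after adjustment over both comparisons).

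Among single genes most calls were of slower decline in vcs sov. The slope was higher in vcs sov for 2503 of 16744 genes (14.9% of those tested; limma, adjusted p under 0.05) and lower for 190 (1.13%). Of these, 214 differed by at least 0.5 log2 units per h upwards and 9 by as much downwards. A total of 3274 genes (19.6%) had all 4 vcs sov slopes above all 4 vcs slopes, and 284 (1.7%) had them all below. Among the 2503, 66 had a mean slope above 0 in vcs sov, so that their level did not fall relative to the reference genes.

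The balance of higher and lower calls depended on the scaling. With the slopes of each course centred on their own median, which removes a shift common to all genes of a course, 914 genes were higher (5.46%) and 855 were lower (5.11%). Higher calls made up 92.9% of all calls with reference scaling and 51.7% after centring. After centring 913 of the 2503 higher calls and all 190 lower calls also passed. Centring takes the difference in median slope, 0.08, off the difference of every gene. Lower calls gain by this, so that their passing after centring is no check on them. Leaving out vcs replicate 1 raised the higher calls to 3798. Leaving out vcs replicate 2, 3 or 4 gave 1524, 1234 and 1397, and leaving out vcs sov replicate 1, 2 or 3 gave 1553, 1103 and 1460. The lower calls fell to 94 without vcs replicate 2, 96 without vcs replicate 3, and 47, 113 and 109 without vcs sov replicates 2, 3 and 4.

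**Figure D1:**
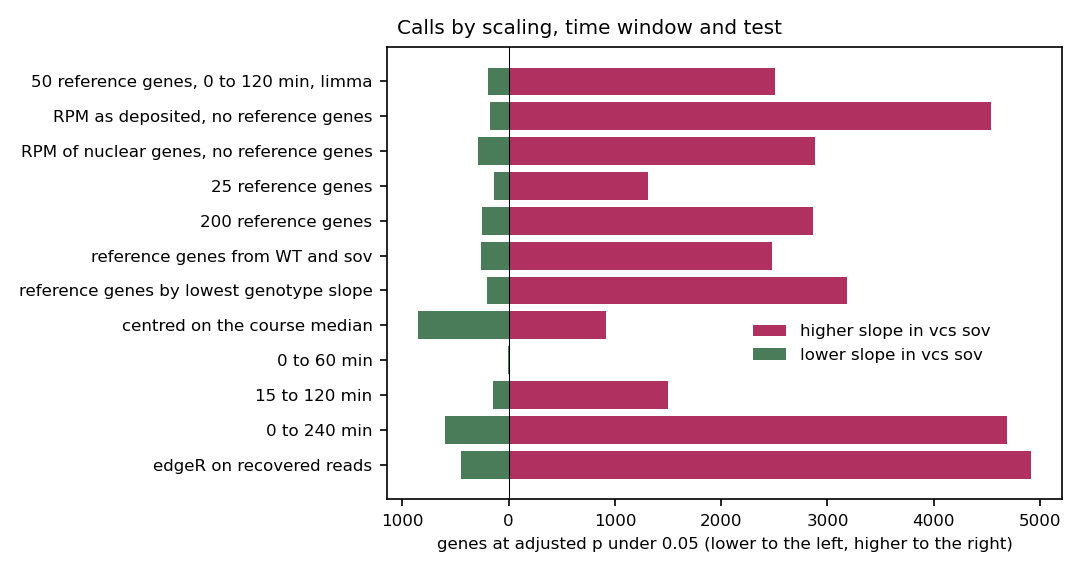
Bars give the number of genes with a limma or edgeR adjusted p under 0.05 for vcs sov against vcs, with higher slopes to the right and lower slopes to the left, under each scaling, time window and test. The edgeR bar takes libraries and not courses as the unit, so that its length is not a like count. The top bar shows the 2503 higher and 190 lower calls described in the text, the centred slopes give 914 and 855, and slopes over 0 to 60 min give 6 and 8.

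Over 0 to 60 min alone, few differences passed a test. limma called 6 genes higher and 8 lower, and the difference in the median slope over all genes was 0.065 (exact permutation p = 0.286). Among the 2503 genes called over 0 to 120 min, the median slope over 0 to 60 min was -0.69 in vcs and -0.40 in vcs sov, and 2462 of them (98.4%) had the higher mean in vcs sov. From 60 to 120 min their median change was -0.58 in vcs and -0.29 in vcs sov. These genes were chosen on a window that includes the same libraries, so that these values describe the calls and show nothing about when a difference arose. Between 60 and 120 min the mean level rose for 123 of the 2503 genes in vcs sov (4.91%) and for 9 in vcs (0.36%). For the 14051 genes not called the shares were 2.68% in vcs sov and 2.33% in vcs. The choice of the 2503 by a higher slope in vcs sov itself favours such a contrast.

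The WT courses, which entered the comparison only through the choice of reference genes, were used to sort genes by half-life. The difference between vcs sov and vcs passed its test in the 3 classes that are shortest-lived in WT. For the 50 genes with a WT half-life under 30 min, the mean of the course medians was -1.58 ± 0.07 in vcs and -1.34 ± 0.07 in vcs sov (mean and SD, n = 4), a difference of 0.24. It was 0.17 for the 1555 genes of 30 to 60 min and 0.12 for the 5602 genes of 60 to 120 min. In each of these 3 classes the 4 vcs sov courses lay above the 4 vcs courses (exact permutation p = 0.0286, the smallest possible; 0.0476 after adjustment over 5 classes). The difference was 0.07 for the 4802 genes of 120 to 240 min (exact p = 0.114) and 0.01 for the 3454 genes of over 240 min or no decline (exact p = 0.743), where the 2 sets of courses overlapped. The calls of the 3 shortest-lived classes did not hold under every alternative tried. Over 0 to 60 min the differences were 0.041, 0.113 and 0.096 (exact p = 0.771, 0.114 and 0.2). Without vcs sov replicate 2 all 3 had exact p = 0.0571, with differences of 0.211, 0.163 and 0.118. The classes of 30 to 60 and 60 to 120 min also had exact p = 0.0571 without vcs sov replicate 1 (0.153 and 0.111), 3 (0.168 and 0.123) or 4 (0.178 and 0.132). In these fits without 1 course, the vcs sov courses left still lay above all vcs courses, so that the p-values mark no overlap. With 25 reference genes the same 2 classes had exact p = 0.0571 and 0.0857. The class under 30 min had exact p = 0.0571 with the 5 RPM filter, nuclear RPM, 200 reference genes or without the libraries of swapped tubes. The class of 120 to 240 min had exact p = 0.0286 with RPM as deposited (0.094) and nuclear RPM (0.057). The same p was reached with 200 reference genes (0.062), references from WT and sov (0.055) and without vcs replicate 1 (0.090). With 25 reference genes it was 0.286 (0.050). The longest-lived class had exact p = 0.0286 with RPM as deposited (0.039). Reference scaling sets the median change of the reference genes, which have the highest slopes, to 0 in every library. No test compared the classes with each other, and a class of steeper slopes has more room for a difference in log2 units.

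The share of genes with a higher slope followed the same order. It was 36% in the class under 30 min, 23.7% in that of 30 to 60 min, 20.1% in that of 60 to 120 min, 12.5% in that of 120 to 240 min and 5.59% in the longest-lived class. After centring, the share of lower calls in the longest-lived class was 13.2%, against 2.55% with reference scaling. In WT the median slope of the shortest-lived class was -2.22, which the choice of the class by WT half-life fixes in advance. In sov, whose courses did not define the class, it was -2.24, steeper than in either vcs genotype.

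**Figure D2:**
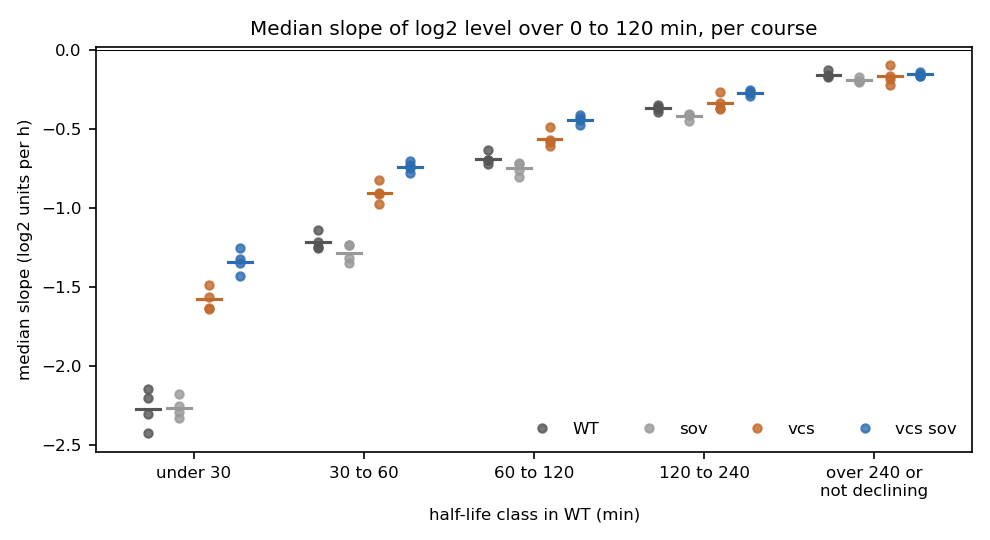
Each point is the median slope (log2 units per h) of 1 course over the genes of a WT half-life class (min), with 4 courses of WT, sov, vcs and vcs sov side by side and a bar at their mean. The vcs sov points lie above the vcs points in the 3 shortest-lived classes (differences of 0.24, 0.17 and 0.12) and overlap them in the others.

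The targeted genes were examined first among single genes. VCS was present at 4.49 RPM in vcs and 9.13 RPM in vcs sov before cordycepin (0 min), against 66.2 RPM in WT and 66.7 RPM in sov, and its slope did not pass the test (difference -0.06, SE 0.13, limma adjusted p = 0.794). SOV itself (AT1G77680) was at 516 RPM in vcs and 182 RPM in vcs sov before cordycepin (0 min), and at 98.5 RPM in WT and 21.0 RPM in sov, so that SOV reads remained without the transgene. Its slopes were -0.83, -0.79, -0.88 and -0.85 in vcs and -0.59, -0.46, -0.69 and -0.57 in vcs sov. The 2 sets did not overlap, and the half-life was 71.7 min in vcs and 104 min in vcs sov (difference 0.26, SE 0.08, adjusted p = 0.0355). That call was lost after centring (adjusted p = 0.11) and when any course other than vcs replicate 1 or vcs sov replicate 3 was left out (adjusted p up to 0.121). SOV reads in vcs can come from the transgene as well as the endogenous gene, and in vcs sov from the endogenous gene alone. The SOV slopes thus describe different transcripts and not a change in 1 mRNA, here and wherever SOV is counted below. VCR (AT3G13290), the neighbouring relative of VCS, had slopes of -0.23 and -0.12 and did not pass (adjusted p = 0.158). Reads shared by VCS and VCR could be counted to either.

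The 12 largest differences in each direction were taken from part of the calls. These had a symbol, at least 5 RPM at 0 min in both genotypes and slopes that do not overlap. The gap between the 2 sets of slopes of these genes is thus part of the choice and no further evidence. Among the 12 genes with the largest higher slopes were 2 transcription factors with B-box zinc fingers. BBX15 (AT1G25440) had slopes of -1.93, -2.50, -2.46 and -2.43 in vcs and -1.14, -1.31, -1.52 and -1.38 in vcs sov. Among the vcs courses replicate 1 was the shallowest. The half-life of BBX15 was 25.7 min in vcs and 44.9 min in vcs sov (difference 0.99, SE 0.16, limma adjusted p = 0.00252). At 120 min 4.03% ± 1.9 of the level at 0 min was left in vcs and 14.4% ± 4.5 in vcs sov (mean and SD, n = 4). BBX14 (AT1G68520) had slopes of -2.27 to -2.67 in vcs and -1.33 to -2.17 in vcs sov (difference 0.75, SE 0.19, adjusted p = 0.0181). The BBX14 call was lost without vcs sov replicate 2 (adjusted p = 0.0585). In WT the slope was -1.06 for BBX15 and -2.39 for BBX14, so that BBX15 declined more steeply in vcs than in WT.

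The largest difference among the 12 belonged to MAKR6 (AT5G52900), a member of the MEMBRANE-ASSOCIATED KINASE REGULATOR family. Its slopes were -1.70, -1.68, -1.63 and -2.00 in vcs and -0.52, -0.64, -1.03 and -0.69 in vcs sov. The difference was 1.03 (SE 0.13, adjusted p = 0.00116). Over 0 to 60 min the slopes were -1.90 in vcs and -1.60 in vcs sov, and from 60 to 120 min the change per h was -1.41 and 0.27. At 60 min 31.5% ± 8.8 of the MAKR6 level was left in vcs and 40.8% ± 10 in vcs sov, and at 120 min 11.3% ± 3.2 and 51.5% ± 20 (SD, n = 4).

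Genes of hormone signalling and synthesis were also among the 12. PYL6 (AT2G40330), an abscisic acid receptor, was at 37.1 RPM in vcs and 6.61 RPM in vcs sov before cordycepin (0 min). Its slopes were -1.10, -1.31, -1.15 and -1.27 in vcs and -0.74, -0.42, -0.33 and -0.18 in vcs sov. The half-life of PYL6 was 49.7 min in vcs and 144 min in vcs sov (difference 0.79, SE 0.11, adjusted p = 0.00158). ACS8 (AT4G37770), an ACC synthase of ethylene synthesis, spread more widely, from -0.56 to -1.38 in vcs and from -0.54 to 0.14 in vcs sov, so that the 2 sets nearly met. Its difference was 0.79 (SE 0.19, adjusted p = 0.0228), and the call was lost without vcs replicate 4 or vcs sov replicate 3 (adjusted p up to 0.0551).

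Transporters, a channel and a nutrient sensor formed another group. NRT1.8 (AT4G21680), a nitrate transporter, had slopes of -1.01, -1.30, -1.56 and -1.42 in vcs and -0.96, -0.54, -0.44 and -0.38 in vcs sov. The highest vcs value lay just below the lowest vcs sov value (difference 0.74, SE 0.14, adjusted p = 0.00596). KT1 (AT2G30070), a potassium transporter, had slopes of -0.98 to -1.15 and -0.27 to -0.46 (difference 0.72, SE 0.08, adjusted p = 0.000406). For DND1 (AT5G15410), a cyclic nucleotide-gated ion channel, they were -1.10 to -1.50 and -0.46 to -0.66 (difference 0.71, SE 0.10, adjusted p = 0.00177). Half-lives of KT1 were 56.4 and 176 min and those of DND1 were 47.5 and 107 min in vcs and vcs sov.

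SPX1 (AT5G20150), a phosphate sensor that restrains the phosphate starvation response, differed from the others in that its slope was above 0 in every vcs sov course. Its slopes were 0.01, -0.07, -0.27 and -0.23 in vcs and 0.53, 0.68, 0.42 and 0.80 in vcs sov. The difference was 0.75 (SE 0.10, adjusted p = 0.00116). At 120 min SPX1 stood at 108% ± 35 of its level at 0 min in vcs and 237% ± 75 in vcs sov (mean and SD, n = 4). A slope above 0 is no decay rate.

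The remaining genes of the 12 were an immune receptor gene and 2 enzymes. TAO1 (AT5G44510), an immune receptor of the TIR-NBS-LRR class, had slopes of -1.02, -1.15, -1.26 and -1.17 in vcs and -0.44, -0.36, -0.45 and -0.37 in vcs sov. The 4 vcs sov values lay within 0.1 of each other and far from the vcs values, and the half-life went from 52.3 to 149 min (difference 0.74, SE 0.08, adjusted p = 0.000406). UBP17 (AT5G65450), a ubiquitin-specific protease, differed by 0.88 (SE 0.11, adjusted p = 0.00116), with half-lives of 38.0 and 86.0 min. UGT85A4 (AT1G78270), a glycosyltransferase, differed by 0.70 (SE 0.13, adjusted p = 0.00539). Of the 12 calls, 10 held whichever course was left out; those of ACS8 and BBX14 did not.

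**Figure D3:**
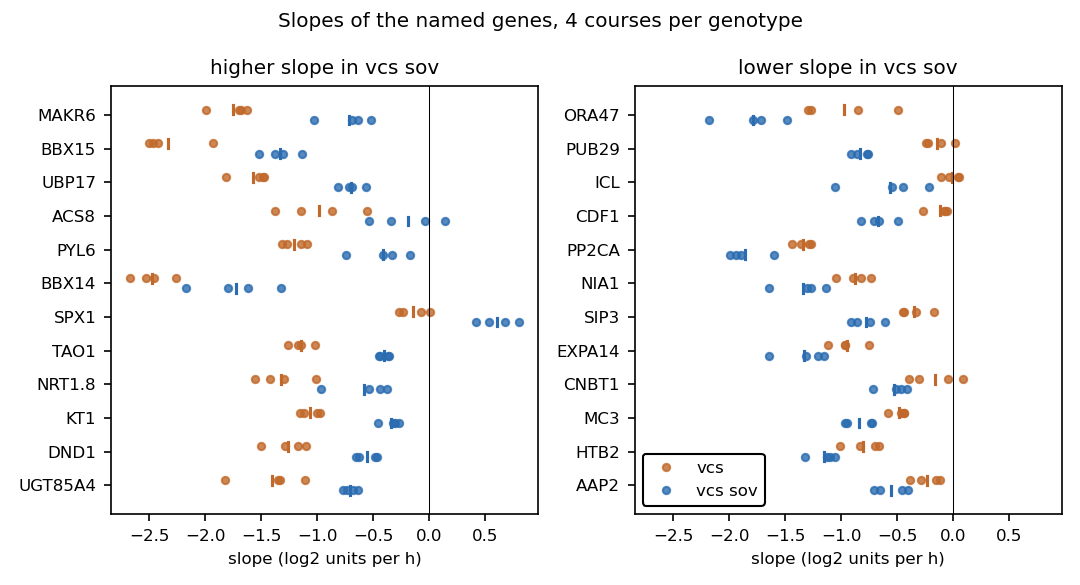
Each point is the slope of 1 course (log2 units per h), with 4 courses of vcs and 4 of vcs sov for each gene and a bar at their mean. Genes were taken among calls with a symbol, at least 5 RPM at 0 min in both genotypes and slopes that do not overlap. On the left are the 12 of these genes with the largest higher slopes in vcs sov (differences of 0.70 to 1.03). On the right are the 12 with the largest lower slopes (differences of -0.32 to -0.81).

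The genes that declined faster in vcs sov were fewer and their differences smaller. ORA47 (AT1G74930), an AP2/ERF transcription factor of jasmonate responses, had slopes of -1.27, -0.49, -0.85 and -1.29 in vcs and -1.71, -1.48, -1.79 and -2.18 in vcs sov. The half-life went from 61.4 to 33.5 min (difference -0.81, SE 0.19, limma adjusted p = 0.014). PUB29 (AT3G18710), a U-box ubiquitin ligase, scarcely declined in vcs, with slopes of -0.24, -0.11, 0.02 and -0.23, and declined in every vcs sov course, with -0.92, -0.86, -0.77 and -0.76. Its difference was -0.69 (SE 0.07, adjusted p = 0.000398), and 83.9% ± 23 of the PUB29 level was left at 120 min in vcs against 31.1% ± 7.2 in vcs sov (mean and SD, n = 4). PUB29 was the only one of the 24 genes with the largest differences whose call also passed over 0 to 60 min.

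CDF1 (AT5G62430), a DOF factor that represses the flowering gene CONSTANS, behaved in a like manner. Its slopes were -0.27, -0.07, -0.05 and -0.08 in vcs and -0.66, -0.49, -0.71 and -0.82 in vcs sov, and its level at 0 min was 5.77 RPM and 24.3 RPM. The difference was -0.55 (SE 0.07, adjusted p = 0.00123). In WT the slope of CDF1 was -0.62 and in sov -0.68, close to that in vcs sov. SIP3 (AT4G30960), a protein kinase, had slopes of -0.17 to -0.45 in vcs and -0.61 to -0.91 in vcs sov (difference -0.43, SE 0.09, adjusted p = 0.00703).

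PP2CA (AT3G11410), a clade A protein phosphatase 2C that restrains abscisic acid signalling, already declined fast in vcs. Its slopes were -1.44, -1.29, -1.27 and -1.35 in vcs and -1.60, -1.99, -1.94 and -1.89 in vcs sov. The half-life went from 44.8 to 32.4 min (difference -0.51, SE 0.13, adjusted p = 0.0184). The PP2CA call was lost without vcs replicate 3 or vcs sov replicate 2 (adjusted p up to 0.0594). The abscisic acid receptor gene PYL6 thus stood among the genes of higher slope and this phosphatase gene among those of lower slope.

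Metabolic genes with lower slopes were NIA1 and ICL. NIA1 (AT1G77760), a nitrate reductase, was at 1348 RPM in vcs and 966 RPM in vcs sov before cordycepin (0 min), with slopes of -0.82, -0.73, -0.89 and -1.05 in vcs and -1.27, -1.65, -1.14 and -1.30 in vcs sov. At 120 min 28.9% ± 4.5 was left in vcs and 15.7% ± 4.0 in vcs sov (mean and SD, n = 4). The difference in slope was -0.47 (SE 0.12, adjusted p = 0.0213). The call of NIA1 was lost without vcs replicate 2, vcs replicate 3 or vcs sov replicate 2 (adjusted p up to 0.0633). ICL (AT3G21720), isocitrate lyase of the glyoxylate cycle, had slopes of 0.05, 0.05, -0.11 and -0.03 in vcs and -1.05, -0.55, -0.45 and -0.21 in vcs sov, of which replicate 1 lay lowest. Its difference of -0.55 (SE 0.15, adjusted p = 0.0402) passed in 3 of the 8 fits that leave out 1 course.

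The other 5 of the 12 differed by -0.32 to -0.38. They were EXPA14, an expansin of cell wall loosening, CNBT1, a cyclic nucleotide-binding protein, the metacaspase gene MC3, the histone H2B gene HTB2, and AAP2, an amino acid permease. The MC3 call held whichever course was left out (adjusted p up to 0.0422). The calls of EXPA14, CNBT1, HTB2 and AAP2 held in 1, 3, 2 and 6 of 8 such fits. In all, 5 of the 12 lower calls held in every one, those of ORA47, PUB29, CDF1, SIP3 and MC3.

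**Figure D4:**
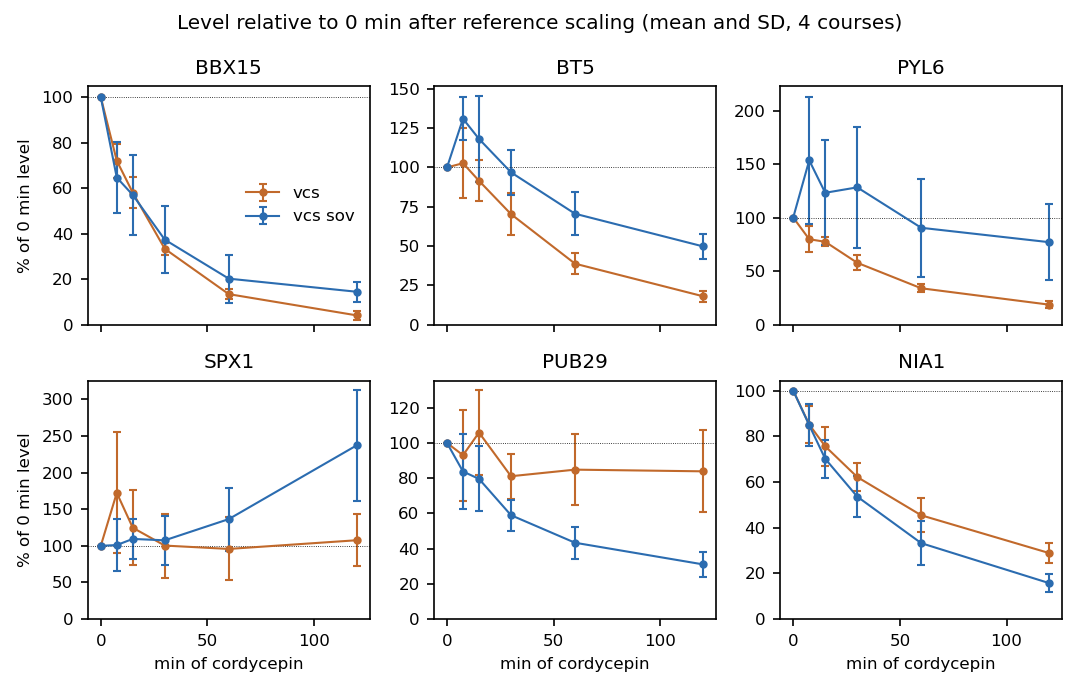
Points give the level as a percentage of that at 0 min of the same course after reference scaling, against min of cordycepin, as the mean and SD of 4 courses of vcs and of vcs sov. BBX15, BT5 and PYL6 retained more in vcs sov at 120 min, SPX1 rose there to 237%, and PUB29 and NIA1 retained less (31.1% and 15.7%).

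Gene lists were read against the 14.9% of all tested genes with a higher slope, the 1.13% with a lower slope and the median difference of 0.08. Of all genes tested, 74.5% had a difference above 0, and 8104 of 16744 did after centring. Among the BT1 to BT5 genes, which encode BTB and TAZ domain proteins, 4 of 5 were higher and their median difference was 0.39. BT5 (AT4G37610) had slopes of -1.24, -1.20, -1.34 and -1.50 in vcs and -0.63, -0.57, -0.71 and -0.70 in vcs sov, well apart, and 18.0% ± 3.6 and 49.7% ± 8.1 of its level was left at 120 min (difference 0.67, SE 0.10, limma adjusted p = 0.00159). BT2 differed by 0.57 (adjusted p = 0.012), BT3 by 0.39 (0.0231 likewise) and BT1 by 0.33 (0.0378). BT4, with a difference of 0.20, did not pass (adjusted p = 0.23). After centring 3 of the 5 were higher. The calls of BT5 and BT2 held whichever course was left out, that of BT3 in 4 of 8 fits and that of BT1 in 1.

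Of 29 cytoplasmic mRNA decay factors, 5 were higher (17.2%) and none lower, with a median difference of 0.10. They were AT1G76630 (0.37, SE 0.07, adjusted p = 0.00463), AT1G02080 (0.30, SE 0.05, adjusted p = 0.00418), SOV, AT3G58580 (0.21, adjusted p = 0.0195) and LSM1B (0.20, adjusted p = 0.0354), a subunit of the LSM ring that promotes decapping. AT1G76630 had slopes of -0.70 to -0.87 in vcs and -0.39 to -0.43 in vcs sov. The decapping enzyme gene DCP2 did not pass (difference 0.10, adjusted p = 0.566), with levels at 0 min of 14.4 RPM in vcs and 244 RPM in vcs sov, and neither did the 5'-to-3' exoribonuclease gene XRN4 (0.08, adjusted p = 0.406). After centring 2 of the 29 were higher. The call of AT3G58580 was lost without vcs replicate 4 or vcs sov replicate 2 (adjusted p up to 0.0539), and those of AT1G76630 and AT1G02080 held whichever course was left out. Among 13 small RNA silencing factors the Dicer genes DCL4 (0.26, adjusted p = 0.00911) and DCL2 (0.25, adjusted p = 0.0191) were higher, and neither passed after centring. The DCL2 call was lost without vcs sov replicate 1 (adjusted p = 0.0502).

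Light and hormone regulators followed. Among 18 CONSTANS-like and B-box genes, 4 were higher (22.2%), namely BBX15, BBX14, BBX8 (0.30, adjusted p = 0.0315) and COL9 (0.29, adjusted p = 0.0191), and 17 had a difference above 0. None of 7 PIF, HY5 and related light signalling genes passed, although their median difference was 0.24. The BBX8 call held in 2 of the 8 fits that leave out 1 course (adjusted p up to 0.107) and was lost after centring, when 2 of the 18 were higher. Of 11 ethylene receptor and signalling genes 3 were higher (27.3%): the receptor genes EIN4 (0.28, adjusted p = 0.00718) and ERS1 (0.24, adjusted p = 0.0143) and CTR1 (0.24, adjusted p = 0.0111), the kinase that represses the pathway. EIN4 had slopes of -0.22 ± 0.04 in vcs and 0.05 ± 0.11 in vcs sov (mean and SD, n = 4). The calls of EIN4 and ERS1 held whichever course was left out. After centring 2 of the 11 were higher, ERS1 and CTR1, and EIN4 did not pass (adjusted p = 0.0592).

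Among 18 AUX/IAA genes, repressors of auxin responses, 3 were higher (16.7%). They were IAA14 (0.41, adjusted p = 0.00468), SHY2 (0.39, adjusted p = 0.0467) and IAA10 (0.23, adjusted p = 0.0403). After centring 1 of the 18, IAA14, was higher and 2 were lower. The type-A response regulator genes, which dampen cytokinin signalling, had 2 of 6 higher, ARR9 (0.31, adjusted p = 0.0359) and RR3 (0.25, adjusted p = 0.0409), and none after centring. None of 11 JAZ repressor genes of jasmonate signalling passed in either direction, with a median difference of -0.06. The cytokinin response factor CRF2 (0.34, adjusted p = 0.0497) was 1 of 5 to pass, and none did after centring. The call of IAA14 held whichever course was left out, and those of SHY2, IAA10, ARR9, RR3 and CRF2 held in 1 or 2 of 8 fits (adjusted p up to 0.151). Of 2 SAUR genes tested, SAUR36, an auxin response gene, was higher (0.60, adjusted p = 0.00204), in every such fit too.

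Of 20 circadian clock genes 4 were higher (20%). RVE2, a MYB-like factor, had slopes of -1.96 to -2.27 in vcs and -1.35 to -1.72 in vcs sov (difference 0.56, SE 0.14, adjusted p = 0.0201). The evening complex genes ELF3 (0.33, adjusted p = 0.00735) and PCL1 (0.29, adjusted p = 0.033) and GI (0.23, adjusted p = 0.0267) were the others. The call of ELF3 held whichever course was left out, that of RVE2 was lost without vcs replicate 3 or vcs sov replicate 2, and that of PCL1 held only without vcs replicate 1 (adjusted p up to 0.0763 and 0.0907). After centring 2 of the 20 were higher and 1 was lower. Among 40 WRKY transcription factor genes 7 were higher (17.5%) and 1 lower, and 2 were higher and 1 lower both after centring and with 25 reference genes. The highest were WRKY69 (0.59, SE 0.12, adjusted p = 0.00849) and WRKY70 (0.54, SE 0.07, adjusted p = 0.00129), whose half-life was 79.1 min in vcs and 277 min in vcs sov. WRKY45 was lower (-0.47, SE 0.11, adjusted p = 0.0191), from a level at 0 min of 2.31 RPM in vcs and 20.4 RPM in vcs sov. The calls of WRKY69 and WRKY70 held whichever course was left out, and that of WRKY45 was lost without vcs replicate 2, vcs replicate 3 or vcs sov replicate 2 (adjusted p up to 0.0581).

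All 23 A-, B- and D-type cyclin genes tested had a difference above 0 (median 0.15), against 74.5% of all genes tested. After centring 21 did, against 8104 of all 16744. Of the 23, 3 passed the test (13%), CYCA1;1 (0.35, adjusted p = 0.0359), CYCB2;3 (0.33, adjusted p = 0.0406) and CYCD5;1 (0.25, adjusted p = 0.0392). None passed after centring, and those of CYCA1;1 and CYCB2;3 held only without vcs replicate 1 (adjusted p up to 0.11). Core histone genes had 1 of 15 higher, the H2A gene HTA13 (0.33, adjusted p = 0.0297), and 1 lower, HTB2. The HTA13 call held in 4 of 8 fits that leave out 1 course (adjusted p up to 0.0905) and was lost after centring.

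Lists of photosynthesis and stress genes held few calls of a higher slope. None of 39 nuclear photosystem, antenna and Rubisco small subunit genes passed, 8 of them had a difference above 0 and their median was -0.03. After centring 4 of the 39 were lower. Among 20 dehydration and abscisic acid response genes none was higher and 2 were lower (10%), PP2CA and the dehydrin gene ERD14 (-0.20, adjusted p = 0.0417). Among 5 heat shock protein genes HSP70 was lower (-0.26, adjusted p = 0.0317), and all 5 differences were below 0. HSP70 was itself 1 of the 50 reference genes, and its call held in 3 of 8 fits that leave out 1 course (adjusted p up to 0.0866). Of 21 early stress and touch genes 1 was higher, ERF2 (0.31, adjusted p = 0.0267), and 1 lower, the ubiquitin ligase gene PUB24 (-0.49, adjusted p = 0.0122). After centring none of the 21 was higher and 2 were lower, and ERF2 did not pass (adjusted p = 0.105). The ERF2 call held in 4 of 8 such fits (adjusted p up to 0.0764), and over 0 to 60 min its difference had the opposite sign (-0.029). The call of PUB24 was lost without vcs sov replicate 2 (adjusted p = 0.0504).

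The 43 genes with RPL or RPS symbols mix ribosomal protein genes with disease resistance genes that share the letters. Being chosen by symbol, they also do not separate proteins of the cytosolic ribosome from those of organelle ribosomes. The 1 that was higher, RPS4 (0.16, adjusted p = 0.045), is a disease resistance gene. The 3 that were lower (6.98%) were RPL4, RPL21C and RPL27, each by -0.18 (adjusted p = 0.0298, 0.0253 and 0.0293). Their calls held in 4, 4 and 3 of 8 fits that leave out 1 course (adjusted p up to 0.104), and after centring 14 of the 43 were lower. None of 13 common reference genes for quantitative PCR passed, with differences of -0.09 for UBQ10 to 0.13 for ACT7. Of 15 iron uptake and response genes 1 was higher, BTS (0.29, adjusted p = 0.0258), a ubiquitin ligase that restrains iron uptake, in 4 of 8 such fits and not after centring. None of 15 tubulin, 18 aquaporin or 15 cuticular wax genes passed, and 3, 1 and 1 of them were lower after centring.

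Markers of single cell types gave few calls. Of the tested markers, 1 of 5 of root hairs (PRP3, 0.57, adjusted p = 0.0127) and 1 of 11 of xylem and secondary walls (MYB46, 0.33, adjusted p = 0.0337) were higher, and 1 of 7 of the stomatal lineage (ERL2, -0.24, adjusted p = 0.0379) was lower. The PRP3 call held whichever course was left out, and those of MYB46 and ERL2 held in 2 and 1 of 8 fits (adjusted p up to 0.0873 and 0.105). After centring PRP3 passed and MYB46 did not (adjusted p = 0.0807). ERL2 passed too, but a lower call gains by centring. None of 4 phloem markers passed, 2 of them were lower after centring, and the 1 shoot meristem marker tested, STM, did not pass (0.11, adjusted p = 0.17). The share of each cell type in the seedlings was not measured, and its part in these values was not tested. The lists of AUX/IAA, clock, early stress, histone, small RNA silencing, wax, aquaporin, xylem and reference genes had medians that changed sign between scalings; the other list medians given here kept theirs. The median of all genes tested, 0.08, also changed sign, to -0.01 after centring.

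**Figure D5:**
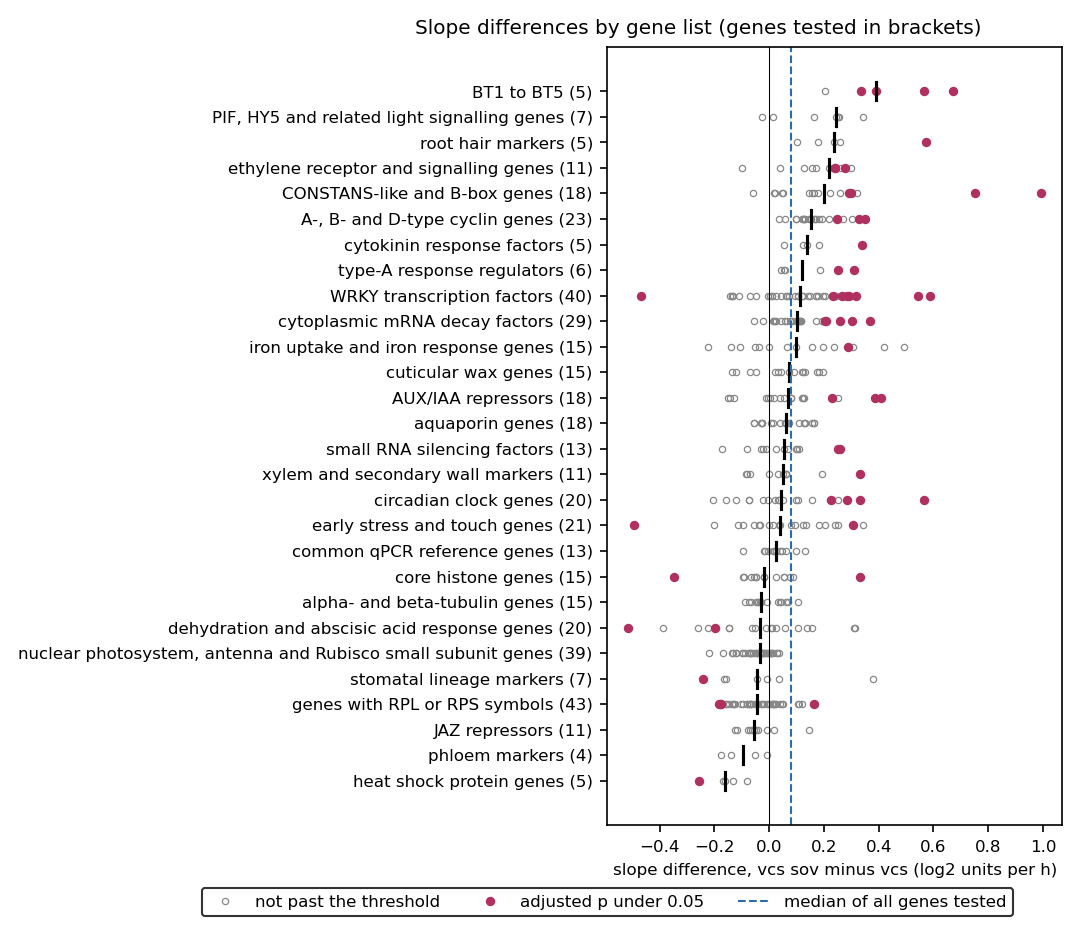
Each circle is the slope difference of 1 gene (vcs sov minus vcs, log2 units per h) in the lists with at least 4 genes tested, filled where the adjusted p is under 0.05, with a black bar at the list's median. The dashed line marks the median of all genes tested, 0.08; the BT genes lie highest (median 0.39) and the heat shock protein genes lowest.

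Transcripts of the plastid genome, which are not degraded in the cytoplasm, departed from nuclear ones. This grouping was made after the values were seen and carries no test. Of 114 plastid genes tested, 26 were lower in vcs sov (22.8%) and 6 were higher (5.26%), with a median difference of -0.12. The median plastid slope was -0.14, -0.14, -0.24 and -0.25 in the vcs courses and -0.29, -0.39, -0.29 and -0.40 in the vcs sov courses, and the 2 sets did not overlap. Among 16569 nuclear genes 2495 were higher (15.1%) and 164 lower (0.99%), and among 61 mitochondrial genes 2 were higher and none was lower. After centring 63 plastid and 13 mitochondrial genes were lower, with 5 and none higher, and with 25 reference genes 18 plastid genes were lower. Over all scalings tried the plastid median ran from -0.20 to -0.09. ATCG00440 (-0.41, adjusted p = 0.00927) and ATCG00860 (-0.38, adjusted p = 0.0102) were lower, and ATCG00990 (1.25, adjusted p = 0.00116) and ATCG00240 (1.09, adjusted p = 0.00231) were higher. Reads of organelle genes were a smaller share of the vcs sov than of the vcs libraries, and the part of this in the slopes was not tested.

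Exon number and length are given as a description, with no test. The median exon number, from the RefSeq annotation of TAIR10.1, was 2 for the lower genes with a value (161 of 190), and 5 both for the higher genes (2448 of 2503) and for those not called. Genes with a single exon made up 31.1% of the lower, 12.6% of the higher and 13.2% of the other genes. The median annotated transcript length was 1437, 2063 and 1759 bases in the same order, and the median 3' UTR length was 290, 292 and 283 bases. The share with a higher slope was 14.2% for 1 exon and 18.3% for over 10 exons.

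Levels at 0 min were set beside the calls, also without a test. To keep the 0 min libraries out of the slopes, nuclear genes were called on 7.5 to 120 min. The 2200 higher genes had a median level difference of 0.02 (log2 of nuclear RPM at 0 min, vcs sov minus vcs), and 51.5% of them were more abundant in vcs sov. For the 14212 genes not called the median was -0.02. The 157 lower genes had a median of -0.44, and 34.4% were more abundant in vcs sov. A level at 0 min reflects synthesis as well as decay, and synthesis was not measured.

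The loss of the transgene was then compared between the vcs and the VCS backgrounds, which share no course. In the fit over 16 courses and 15463 genes of at least 2 RPM in all 4 genotypes, no gene differed in slope between sov and WT by limma (0% called; lowest adjusted p = 0.12), and 1723 had an unadjusted p under 0.05. The interaction, which is the difference of vcs sov minus vcs less that of sov minus WT, was above 0 for 1851 genes (12%) and below 0 for 58 (0.375%) past the threshold. The median interaction was 0.13. After centring, 234 genes were above and 269 below. The sum of 1909 interaction calls became 3251 without vcs replicate 1, 1224, 1041 and 1029 without vcs replicates 2, 3 and 4, and 1247 and 1077 without vcs sov replicates 1 and 2. The WT and sov courses were not left out in turn.

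By the interaction, the largest values among genes with 5 RPM or more before cordycepin in all 4 genotypes were those of MAKR6, BBX15, UBP17, PYL6 and MYB60. The slope of MAKR6 was -1.74 in WT and -2.04 in sov, a difference of -0.30 that did not pass (limma adjusted p = 0.402), against the difference of 1.03 between vcs and vcs sov (interaction 1.33, SE 0.18, adjusted p = 0.002). MYB60 (AT1G08810), a transcription factor of guard cells, had a mean slope of -1.12 in WT, -1.43 in sov and -1.22 in vcs, and the shallower -0.68 in vcs sov (interaction 0.85, SE 0.15, adjusted p = 0.00395). For both genes the differences had opposite signs in the 2 backgrounds.

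Below 0, the largest values under the same limit were those of PUB29, PP2CA, CDF1, FBS1 and HSFB2A. ORA47, below that level in WT and sov, had an interaction of -1.05 (SE 0.25, limma adjusted p = 0.0156). PUB29 had slopes of -0.13 in WT, -0.17 in sov and -0.14 in vcs, and stood apart in vcs sov at -0.83 (interaction -0.65, SE 0.12, adjusted p = 0.00497). FBS1 (AT1G61340), a stress-induced F-box protein, had -1.03, -0.87, -0.55 and -0.83 in the same order (interaction -0.45, SE 0.14, adjusted p = 0.0387). HSFB2A (AT5G62020), a class B heat shock factor, had 0.07, 0.32, 0.14 and -0.03 (interaction -0.43, SE 0.11, adjusted p = 0.018), and its difference between vcs sov and vcs alone did not pass (adjusted p = 0.0575).

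The authors' deposited table of mean levels relative to 0 min gave a median slope of -0.36 in vcs and -0.24 in vcs sov over the 16743 genes it shares with those tested. In the authors' deposited table the slope was higher in vcs sov for 83.0% of these genes, with a median difference of 0.12. All 2503 higher and all 190 lower genes kept their direction there. The table rests on the same libraries, so that it checks the scaling and not the biology.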

How the data were processed

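The authors deposited RPM values for 28775 genes in 128 libraries, made with Bowtie2 2.2.3, TopHat2 2.0.12 and HTSeq 0.6.1, per the submitters' processing notes; the strand setting of the counting is not given in the sources used here, so overlapping, antisense and near-identical genes are uncertain. Libraries were TruSeq stranded after removal of ribosomal RNA, per the labels' protocols. Each RPM value was a whole multiple of 1 read (100% within 0.001 reads), and 3 reads set the floors, which cover counting error only. A second deposited table holds group means as a ratio to 0 min, per the file headers. Symbols came from the RefSeq TAIR10.1 table (28009 identifiers matched, 10588 with a symbol), used for names, exon numbers and lengths only, since the files use TAIR10. No coordinates are given.

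Slopes were least-squares fits of log2(RPM + 0.1) on time per course. Fold differences on this scale understate changes of low genes. Each library was scaled by the median change, from 0 min of its course, of 50 reference genes: genes with nuclear identifiers (including AT2G07689 and AT2G07727, of the copy of mitochondrial DNA on chromosome 2) of at least 10 RPM in every genotype with the highest mean unscaled slope over 16 courses, without the rRNA genes AT2G01010 and AT3G41768. Unscaled reference slopes ran from 0.07 to 0.57 in vcs and from -0.09 to 0.55 in vcs sov and the set includes HSP70, KIN2, GSTF6, GSTF7, AOX1A and RBCS1A. An error in a library factor moves every gene of that library by the same amount. Slopes were compared with limma 3.58.1 (trend, robust) in R 4.3.3, two-sided, on 8 courses, or 16 for the interaction. An alternative was edgeR 4.0.16 on recovered read counts, with 1 level per course and 1 slope per genotype over 48 libraries. It treats the libraries of a course as replicates of the slope, which the limma test does not. Medians were compared with exact permutation tests. Scripts were tested on simulated data.

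Named genes have a symbol, at least 5 RPM at 0 min in both genotypes, an adjusted p under 0.05 and slopes that do not overlap: the 12 largest differences in each direction. VCS, SOV, VCR, up to 4 members per list with the largest differences, and 5 interaction genes in each direction (at least 5 RPM in every genotype) were added. Other list members, such as DCP2, XRN4, LSM1B, GI, COL9, CYCD5;1, CTR1 and ERD14, were named after their values were seen. Members and the 30 lists were chosen with earlier results of these data known. Per the labels, the tubes of replicate 3 at 60 min of both genotypes had been swapped and corrected. The alternatives varied the pseudocount, filter, scaling, time window, courses, block and test.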

Additional observations from a re-analysis of the deposited data

Results flagged for a closer look

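In 13 of 278 groups of 4 courses examined, 1 slope stood far from the other 3, where chance gives about 1 in 20. In vcs, replicate 1 stood apart for BBX15 (-1.93, the others -2.50 to -2.43), CDF1 (-0.27, the others -0.08 to -0.05), DCL1 (-0.66, the others -0.84 to -0.82) and CRF2 (-0.66, the others -1.11 to -1.04). Replicate 4 of vcs stood apart for UBP17 (-1.82, the others -1.52 to -1.48), SAUR21 (-0.78, the others -0.19 to -0.15) and EXPA7 (-2.29, the others -1.61 to -1.57). Replicate 3 of vcs stood apart for TIP2;3 (-0.50, the others -0.65 to -0.62).

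In vcs sov, replicate 1 stood apart for DCL2 (-0.18, the others -0.27 to -0.26), ETR2 (-0.052, the others 0.096 to 0.103) and WRKY70 (-0.032, the others -0.30 to -0.26). Replicate 3 stood apart for JAZ5 (-0.50, the others -0.76 to -0.73) and replicate 4 for NAC101 (-0.99, the others -0.66 to -0.65).

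For 37 named genes the difference made by the missing transgene differed between the vcs and VCS backgrounds in the limma test of the interaction. Of all 15463 genes in that test, 1851 (12%) were above 0 and 58 (0.375%) below 0 past the threshold. Many named genes had been chosen for a large difference between vcs sov and vcs, which is a term of the interaction. Others had been chosen by the interaction itself. The count of 37 therefore follows in part from the choice of genes. Values are in log2 units per h. The interaction was above 0 for MAKR6 (1.33), BBX15 (1.08), UBP17 (0.96), PYL6 (0.92), MYB60 (0.85), DND1 (0.81), KT1 (0.75), TAO1 (0.73), UGT85A4 (0.68) and SPX1 (0.59). Among members of the gene lists it was above 0 for TMM (0.76), CRF2 (0.70), BT5 (0.70), WRKY70 (0.61), WRKY69 (0.59), CYCB2;3 (0.55), ARR9 (0.48), ELF3 (0.46), IAA14 (0.45), AT1G76630 (0.43), CRF6 (0.43), SOV (0.41), DCL2 (0.37), AT1G02080 (0.33), BTS (0.32), AT3G58580 (0.29), DCL4 (0.29), EIN4 (0.28) and TUB7 (0.22). It was below 0 for ORA47 (-1.05), PUB29 (-0.65), PUB24 (-0.53), PP2CA (-0.52), CDF1 (-0.49), FBS1 (-0.45), HSFB2A (-0.43) and SIP3 (-0.38).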

How the results depend on the processing

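Counts of calls are given as higher, lower and interaction, against 2503, 190 and 1909. They were 1156, 113 and 1205 with no filter on low genes, 914, 855 and 503 after centring, and 6, 8 and 0 over 0 to 60 min. Over 0 to 240 min they were 4690, 597 and 3353. RPM as deposited gave 4541 higher and 3333 interaction calls, nuclear RPM 286 lower and 939 interaction calls, 25 reference genes 1312 higher and 1248 interaction calls, and 15 to 120 min 1498 higher and 871 interaction calls. edgeR on recovered reads gave 4918 higher and 452 lower calls, of which 2451 and 175 were also limma calls. Leaving out 1 course gave 1103 to 3798 higher, 47 to 181 lower and 1029 to 3251 interaction calls.

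The difference in median slope, 0.08 at exact p = 0.0571, passed at the smallest exact permutation p of 0.0286 with RPM as deposited (0.11), nuclear RPM (0.076), 200 reference genes (0.079), references from WT and sov (0.073), references by lowest slope (0.088) and 0 to 240 min (0.065). It did not pass with 25 reference genes (0.068, exact p = 0.143), over 15 to 120 min (0.077, exact p = 0.114) or over 0 to 60 min (0.065, exact p = 0.286). It ran from 0.069 to 0.11 without 1 course, with exact p of 0.0286 to 0.0857. The authors' deposited means, added after seeing the data, gave 0.12 with no test. The causes of these changes were not tested.

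Same-numbered courses of vcs and vcs sov correlated at 0.16, -0.09, 0.14 and 0.01, which does not settle whether the numbers pair them. From replicate 1 to 4 the median slopes fell in the same order in vcs (-0.35, -0.43, -0.45 and -0.46) and vcs sov (-0.31, -0.33, -0.34 and -0.37). The main tests treat the courses as unpaired. With the replicate block there were 2939 higher, 263 lower and 2517 interaction calls. Without the libraries of swapped tubes 2450 and 194 genes were called. All 24 genes with the largest differences passed under each scaling tried except 25 reference genes, which lost ICL, EXPA14 and HTB2.

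Of 64 calls of named genes, 44 held after centring, and 2 over 0 to 60 min, where 1 reversed, that of ERF2 (-0.029). The other sign changes were of differences that had not passed. Those of APL became 0.0024 with a pseudocount of 0.5, 0.022 with RPM as deposited, 0.065 over 15 to 120 min, 0.009998 over 7.5 to 120 min, 0.0305 over 0 to 240 min, and 0.0074, 0.015 and 0.031 without vcs replicate 1, vcs sov replicate 3 and vcs sov replicate 4, with -0.047 the lowest value when 1 course is left out. EXPA7 became -0.15 with a pseudocount of 0.5. Centring gave RR5 -0.027, TUB5 -0.016 and ACT8 -0.023. Over 0 to 60 min JAZ11 was -0.014, IRX12 0.033 and SUC2 0.068. BHLH100 was -0.12 over 15 to 120 min and -0.042 by edgeR. Over 0 to 240 min VCS was 0.019, JAZ1 0.0068, CRF6 -0.041, HSP101 0.068, LHCB2.3 0.026, UBQ10 0.025, ACT8 -0.00019, EXPA7 -0.069 and STM -0.019. Leaving out a vcs course gave VCS 0.019 and HIS4 0.086 (replicate 1), JAZ1 0.00103 (replicate 2) and HSP101 0.0023 (replicate 4), while the lowest values when 1 course is left out were -0.19, -0.23, -0.17 and -0.30. The longest-lived WT class, 0.01, became -0.0052 with 25 reference genes, -0.00040 with references from WT and sov, -0.0074 over 15 to 120 min, -0.0046 over 0 to 240 min and -0.0079 without vcs replicate 3.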
